A study of Homo sapiens with 8 samples.

Results

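Cytochrome P450 enzymes are haem-containing monooxygenases that put an oxygen atom into drugs, fatty acids, steroids and vitamins. In liver they are best known for clearing drugs and other foreign chemicals, and they draw electrons from the reductase POR or, in mitochondria, from the ferredoxin FDX1. HepG2, an established line of human liver cancer, is known to hold low levels of many adult liver P450s. The genes described here are the protein-coding CYP genes of the deposited data whose symbol is a plain family, subfamily and member name, without 6 genes of bile acid, sterol and fatty acid metabolism (CYP7A1, CYP7B1, CYP8B1, CYP27A1, CYP51A1 and CYP4A11). They number 49 of 19951 protein-coding genes and of 58735 genes overall.

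The data are poly(A) RNA-seq of HepG2: 4 libraries from cells given a control lentivirus (genotype label WT) and 4 from cells whose lentivirus made them overexpress DNMT3A, an enzyme that sets new DNA methylation. The library names of both groups carry the vector name pLV_EGFP, and the labels give neither the time after infection nor whether the infected cells were cloned. Values are FPKM, fragments scaled to gene length and library size, so they can be compared between genes per length. Each difference subtracts the control from the DNMT3A mean of log2(FPKM + 1), a scale that understates the change of low genes, and adjusted p is from limma with Benjamini-Hochberg adjustment over the 11620 genes with a mean of at least 1 FPKM.

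Whole reads could be recovered from FPKM and gene length, and the 8 libraries held 15911019 to 17677093 of them. DNMT3A itself was at 3.62, 3.89, 3.45 and 3.64 FPKM in control libraries 1 to 4 and at 9.75, 10.2, 8.51 and 7.26 FPKM in DNMT3A libraries 1 to 4. All 8 hepatocyte markers checked were tested genes, and markers of leukocytes (summed 0.402 to 1.23 FPKM), endothelium (0.435 to 0.679 FPKM) and fibroblasts (0.379 to 0.754 FPKM) were low, and none of them reached the filter. Chi-square values between pairs of libraries, per degree of freedom, were 5.21 to 30.0 within groups and 24.4 to 42.6 between groups, so no library was a copy of another. In bulk RNA, fewer cells holding a transcript and less of it per cell cannot be told apart.

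Few P450 genes were well above background. Of the 49 genes 11 reached a mean of 1 FPKM and were tested, 13 stayed under it with at least 1 library at 0.1 FPKM, 15 had reads but stayed under 0.1 FPKM in every library, and 10 had 0 reads in all 8 libraries, where a count of 0 allows up to 3 reads per library. The summed level over the 49 genes was 65.1 ± 1.14 FPKM in control libraries and 55.1 ± 1.12 FPKM in DNMT3A libraries (SD, n = 4). CYP2W1 alone held 32.1% of that sum in the controls and 28.1% in the DNMT3A libraries. Without CYP2W1 and CYP24A1, a choice made after their values were seen, the sums were 35.5 ± 2.005 FPKM for control and 34.1 ± 1.42 FPKM for DNMT3A libraries (SD, n = 4).

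Among the tested P450 genes 2 fell, CYP2W1 and CYP24A1, 0 rose and 9 did not pass the test (no gene with a positive difference had a 95% interval above 0). Voom, the limma method for counts, run on the recovered reads of the same genes, called 0 P450 genes higher and 3 lower, beside 13.2% and 10.1% of all tested genes (23.3% either way). The 2 genes are 18.2% of the 11 tested, beside 10.6% of all 11620 tested genes called lower and 9.93% called higher. With numbers this small, 1 gene fewer would bring the share below the 10.6% called lower. Counted either way, 20.6% of all tested genes were called. The median difference of the 11 was -0.07, beside -0.01 over all tested genes. For 3 of the 11 the libraries of the groups were fully separate, all lower (CYP2W1, CYP24A1 and CYP19A1), beside 13.0% of all tested genes not overlapping in the lower direction and 12.1% in the higher.

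CpG pairs are the substrate of DNA methyltransferases, and the stretches upstream of 3 genes described below are shown. They are the bases before the more upstream of the RefSeq and the deposited gene start (RefSeq, GRCh38.p14, the hg38 assembly), written 5′ to 3′ on the gene's strand with each CpG in capitals. CYP2W1 lies at chr7:982931-983180 on the plus strand, CYP2J2 at chr1:59926791-59927023 and CYP3A5 at chr7:99680027-99680246, both on the minus strand.
CYP2W1: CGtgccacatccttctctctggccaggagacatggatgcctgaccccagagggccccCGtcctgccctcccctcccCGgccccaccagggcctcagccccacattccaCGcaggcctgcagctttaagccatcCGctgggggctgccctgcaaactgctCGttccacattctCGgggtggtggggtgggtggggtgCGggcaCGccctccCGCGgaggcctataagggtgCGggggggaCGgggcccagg
CYP2J2: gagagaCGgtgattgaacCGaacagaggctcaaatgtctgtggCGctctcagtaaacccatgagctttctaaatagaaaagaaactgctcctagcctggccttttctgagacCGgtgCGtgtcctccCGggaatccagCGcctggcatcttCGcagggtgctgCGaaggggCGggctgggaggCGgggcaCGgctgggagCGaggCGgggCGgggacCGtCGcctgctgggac
CYP3A5: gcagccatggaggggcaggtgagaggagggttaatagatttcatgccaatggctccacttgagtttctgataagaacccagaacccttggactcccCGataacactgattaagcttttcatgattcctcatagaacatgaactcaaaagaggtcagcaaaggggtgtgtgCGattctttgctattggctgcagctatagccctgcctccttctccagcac

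The CYP2W1 stretch holds 13 CpG pairs in 250 bases, that of CYP2J2 17 in 233 bases and that of CYP3A5 2 in 220 bases. These genes were chosen for their values given below, and no such stretch was available for CYP24A1. No relation between CpG content and direction was tested. The data here hold no measure of DNA methylation.

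The xenobiotic-metabolising families 1 to 3 are those that clear drugs and other foreign chemicals. Their group here has 20 genes, since CYP2J2, CYP2U1 and CYP2R1 of family 2 are described below with the genes of their substrates. Of the 20 genes 2 were tested: CYP2W1 fell and CYP2S1 did not pass the test. CYP2W1, an enzyme known from fetal gut and colorectal tumours, was the most abundant P450 gene of the 49 (ENSG00000073067, hg38 chromosome 7, 983199 to 989640, plus strand). It was at 23.0, 19.3, 20.7 and 20.6 FPKM in control libraries 1 to 4 and at 15.5, 17.5, 16.5 and 12.3 FPKM in DNMT3A libraries 1 to 4. Every DNMT3A library was below every control library, and DNMT3A library 4 was the lowest. The mean went from 20.9 ± 1.54 to 15.5 ± 2.22 FPKM, a difference of -0.42 (SE 0.0997, limma adjusted p = 0.0166, and p = 0.0286 by a two-sided exact permutation test, whose 70 assignments allow none smaller). Without a filter on low genes its call was lost (limma adjusted p = 0.0621 over 30436 genes).

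CYP2S1, which dioxin is known to induce, was at 1.79, 1.86, 1.96 and 2.13 FPKM in control libraries 1 to 4 and at 2.15, 2.83, 2.20 and 1.92 FPKM in DNMT3A libraries 1 to 4. The groups overlapped, since DNMT3A library 4 lay within the control range. The difference was 0.15 with a 95% interval of -0.05 to 0.36 (limma adjusted p = 0.267), and 0.07 without DNMT3A library 2, the highest (limma adjusted p = 0.513).

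**Figure D1:**
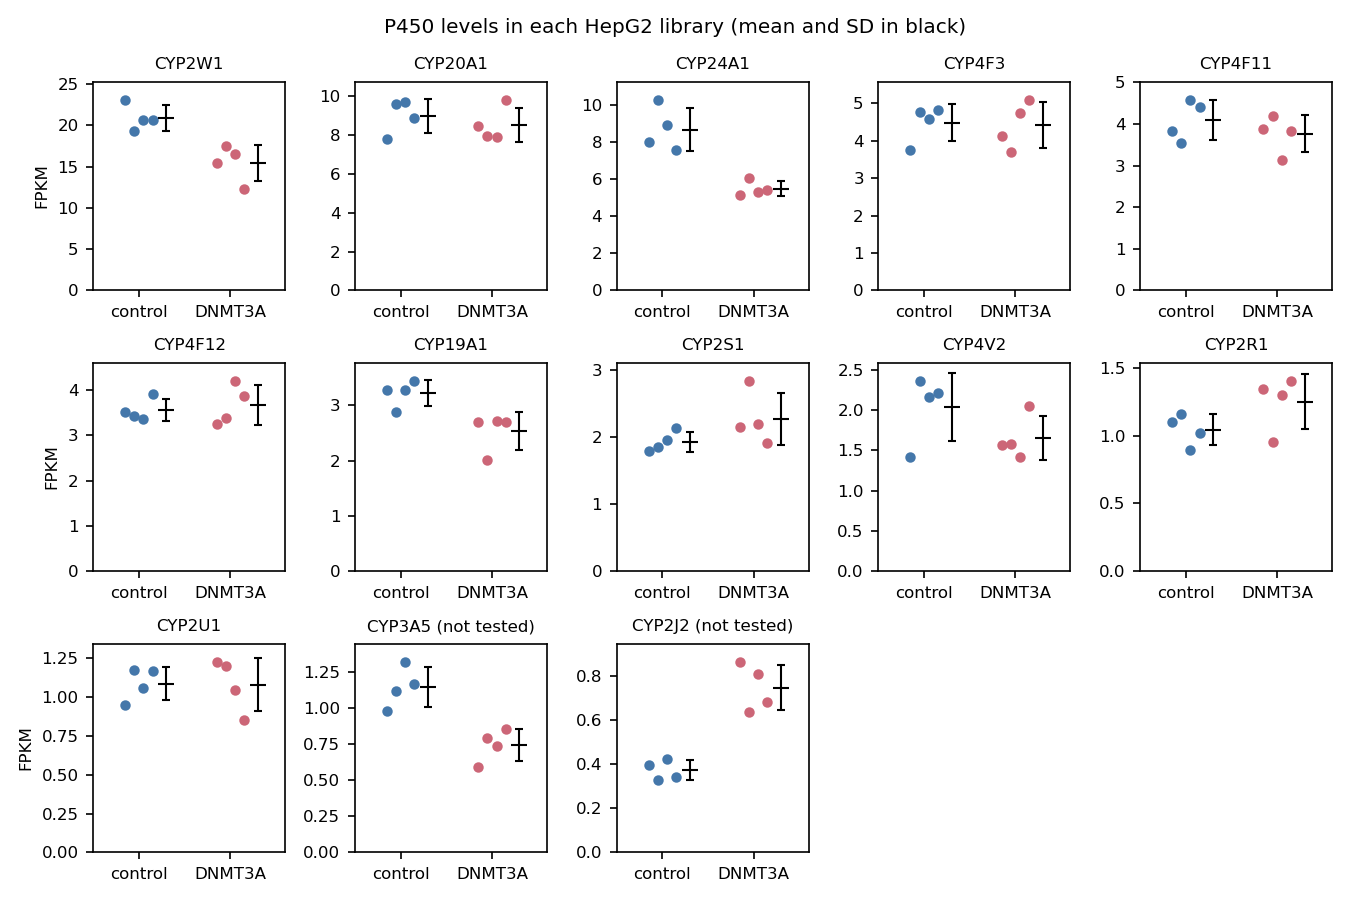
FPKM of the 11 tested P450 genes and of CYP3A5 and CYP2J2 (means under 1 FPKM) in each library, with 4 control libraries in blue, 4 DNMT3A libraries in red, and mean and SD in black. Each vertical axis starts at 0, and the groups do not overlap for CYP2W1, CYP24A1, CYP19A1, CYP3A5 and CYP2J2.

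The other 18 genes of this group were under 1 FPKM, and 3 of them (CYP2A7, CYP2A13 and CYP2C19) had 0 reads. The 4 CYP3A genes, neighbours on chromosome 7, include CYP3A4, the main drug-clearing form of adult liver, and CYP3A7, the fetal form. CYP3A5 (ENSG00000106258, hg38 chromosome 7, 99648194 to 99680026, minus strand) was the highest of them, just under the filter. Its levels were 0.985, 1.12, 1.32 and 1.17 FPKM in control libraries 1 to 4 and 0.593, 0.792, 0.741 and 0.858 FPKM in DNMT3A libraries 1 to 4. Each DNMT3A library lay below each control library. The difference was -0.30 (two-sided exact permutation p = 0.0286, limma adjusted p = 0.108 without a filter), and the gene had 516 reads in the controls and 357 in the DNMT3A libraries.

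Voom was also run on the recovered reads of 14095 genes with a mean of at least 10 reads, both voom fits being chosen after the data were seen. It called CYP3A5 lower, with a log2 difference of -0.60 (SE 0.156, limma adjusted p = 0.0108). That fit covered 19 P450 genes and called 1 higher (CYP2J2) and 4 lower (CYP2W1, CYP24A1, CYP19A1 and CYP3A5). These are 5.26% and 21.1% of the 19, beside 12.6% and 9.50% of all genes in that fit.

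The other CYP3A genes were counted by few reads. CYP3A7 had 36 reads in the controls and 22 in the DNMT3A libraries, with levels of 0.181, 0.152, 0.0995 and 0.134 FPKM in control libraries 1 to 4 and 0.0752, 0.0860, 0.106 and 0.0597 FPKM in DNMT3A libraries 1 to 4. DNMT3A library 3 lay within the control range, and the two-sided exact permutation p was 0.0571. CYP3A4 had 7 reads in the controls and 14 in the DNMT3A libraries, and CYP3A43 had 19 and 25. Of 50-base stretches in CYP3A7 transcripts 38.6% also occur in the readthrough gene CYP3A7-CYP3A51P, which was at 0 FPKM over all libraries. How the authors' counting treated such shared reads is not given, so the CYP3A7 level is uncertain. For CYP3A5 1.14% of the stretches are shared with any other CYP gene.

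CYP1A1, which oxidises polycyclic aromatic hydrocarbons and is the classic target of the dioxin receptor AHR, was low in both groups. It was at 0.439, 0.372, 0.460 and 0.380 FPKM in control libraries 1 to 4 and at 0.567, 0.620, 0.301 and 0.265 FPKM in DNMT3A libraries 1 to 4. DNMT3A libraries 1 and 2 were above all controls and DNMT3A libraries 3 and 4 below all of them, so the difference of means was 0.02. CYP1A2 had 8 reads in the controls and 2 in the DNMT3A libraries, and CYP1B1 had 3 and 2.

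CYP2D6, which clears many drugs, was at a mean of 0.698 ± 0.144 FPKM in control and 0.549 ± 0.202 FPKM in DNMT3A libraries (SD, n = 4), and its groups overlapped. Of its 50-base stretches 34.4% are shared with other CYP genes, mostly the pseudogene CYP2D7, so its value is uncertain. CYP2C8 had 18 and 11 reads. CYP2A6, CYP2B6, CYP2C18 and CYP2F1, which include drug-clearing enzymes of adult liver, had 0 to 3 reads in each group of 4 libraries.

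CYP2E1, which oxidises ethanol, is named after its values were seen, as is every other gene that stayed under 0.1 FPKM in all libraries. CYP2E1 had 4, 5, 8 and 2 reads in control libraries 1 to 4 and 12, 14, 12 and 14 reads in DNMT3A libraries 1 to 4. Every DNMT3A library had more reads than any control library, and 73.2% of its reads came from the DNMT3A libraries (exact binomial 95% interval 61.4 to 83.1%), which held 51.1% of all reads. Such intervals cover counting error only. It was the 1 gene of the 15 under 0.1 FPKM whose groups did not overlap. Over all 5594 genes of that class 2.16% did not overlap (1.23% higher, 0.930% lower), and over the 1141 of them with at least 10 reads in all 6.49% did not (3.77% higher, 2.72% lower). On the log2(FPKM + 1) scale the difference was 0.06 (limma adjusted p = 0.0929 without a filter). The annotated gene overlaps SCART1 on the same strand and SYCE1 on the other, at 0.175 and 0.0150 FPKM over all libraries, and the library protocol names no step that marks strand.

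**Figure D2:**
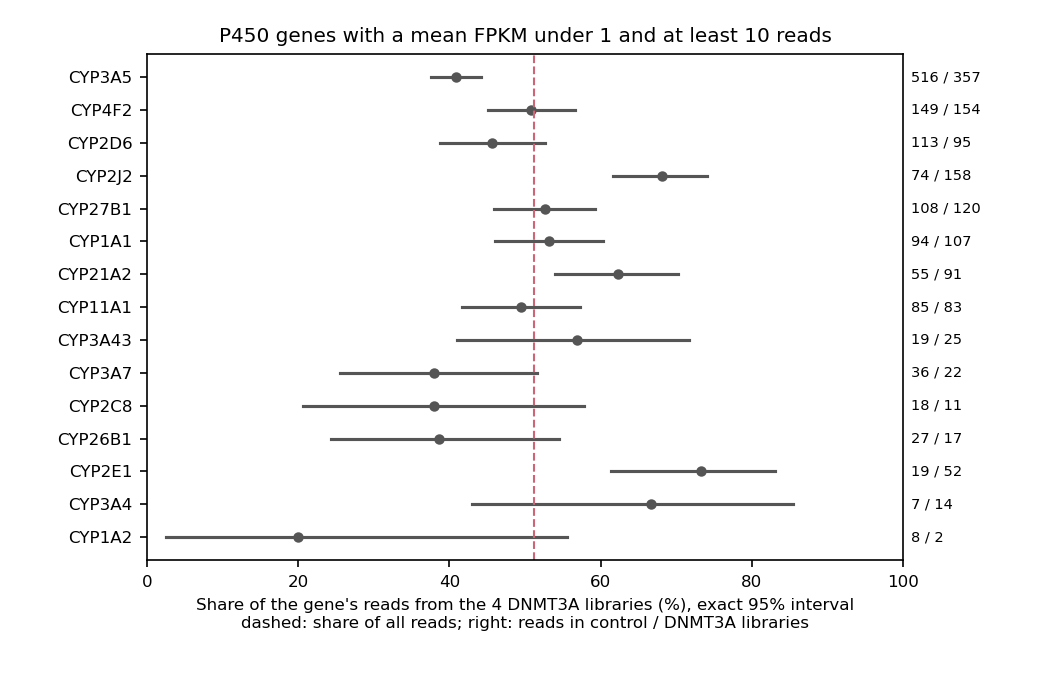
Share of each gene's recovered reads that came from the 4 DNMT3A libraries, for P450 genes with a mean under 1 FPKM and at least 10 reads, with exact binomial 95% intervals that cover counting error only. The dashed line is the share of all reads (51.1%), and the numbers at the right are reads in control and DNMT3A libraries. The whole interval lies left of the line for CYP3A5 and right of it for CYP2J2, CYP2E1 and CYP21A2, and the other intervals cross it.

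The P450s of fatty acids and eicosanoids hydroxylate or epoxidise arachidonic acid, leukotrienes and other long chains. Of 13 such genes 5 were tested and 0 passed the test, with differences of -0.19 to 0.03. Their summed level was 16.3 ± 0.991 FPKM in control and 16.0 ± 0.651 FPKM in DNMT3A libraries (SD, n = 4).

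CYP4F3, CYP4F11 and CYP4F12 lie in 1 cluster on chromosome 19 with CYP4F2, and CYP4F3 is known for inactivating leukotriene B. CYP4F3 was at 3.76, 4.76, 4.57 and 4.83 FPKM in control libraries 1 to 4 and at 4.13, 3.70, 4.73 and 5.07 FPKM in DNMT3A libraries 1 to 4. These ranges nearly coincided, and the difference was -0.02 (95% interval -0.24 to 0.20, limma adjusted p = 0.903). CYP4F11, which oxidises vitamin K, was at 3.84, 3.55, 4.57 and 4.42 FPKM in control libraries 1 to 4 and at 3.88, 4.20, 3.14 and 3.84 FPKM in DNMT3A libraries 1 to 4. The groups overlapped, and it differed by -0.09 (95% interval -0.30 to 0.11).

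CYP4F12, a hydroxylase of arachidonic acid, was at 3.52, 3.42, 3.36 and 3.90 FPKM in control libraries 1 to 4 and at 3.25, 3.37, 4.18 and 3.86 FPKM in DNMT3A libraries 1 to 4. The control range lay inside that of the DNMT3A libraries, and the difference was 0.03 (95% interval -0.14 to 0.21). CYP4F2, which also oxidises vitamin K, was at 0.718 ± 0.287 FPKM in control and 0.694 ± 0.124 FPKM in DNMT3A libraries (SD, n = 4). Of its 50-base stretches 11.9% also occur in CYP4F3, so reads of these could be split between them.

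CYP4V2, a hydroxylase of medium-chain fatty acids that is mutated in Bietti crystalline dystrophy, was at 1.41, 2.35, 2.16 and 2.21 FPKM in control libraries 1 to 4. In DNMT3A libraries 1 to 4 it was at 1.56, 1.58, 1.41 and 2.05 FPKM. Control library 1 stood at the level of the DNMT3A libraries, and the other controls were above all of those. The difference was -0.19 (95% interval -0.45 to 0.08, limma adjusted p = 0.288), and it passed the threshold with array weights (limma adjusted p = 0.0458). Without control library 1 it was -0.29 (limma adjusted p = 0.0728). The annotated gene shares 4478 bases with KLKB1 (0.773 FPKM) on the same strand. CYP2U1, a hydroxylase of long-chain fatty acids, was at 0.947, 1.17, 1.06 and 1.16 FPKM in control libraries 1 to 4 and at 1.22, 1.20, 1.05 and 0.849 FPKM in DNMT3A libraries 1 to 4. Its groups overlapped, and it differed by -0.01 (95% interval -0.21 to 0.20).

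CYP2J2, an epoxygenase of arachidonic acid (ENSG00000134716, hg38 chromosome 1, 59893308 to 59926790, minus strand), was under 1 FPKM and not tested. It was at 0.399, 0.330, 0.423 and 0.342 FPKM in control libraries 1 to 4 and at 0.862, 0.639, 0.808 and 0.685 FPKM in DNMT3A libraries 1 to 4. Every DNMT3A library was above every control library. The reads behind these levels were 19, 17, 20 and 18 in the controls and 45, 35, 42 and 36 in the DNMT3A libraries.

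The mean FPKM of CYP2J2 in the DNMT3A libraries was 2.004 times that in the controls, a difference of 0.35 on the log2(FPKM + 1) scale (two-sided exact permutation p = 0.0286). Without a filter it passed the threshold (limma adjusted p = 0.0346), in a fit that called 2.66% of 30436 genes higher and 2.58% lower (5.24% either way); there 1 of 39 P450 genes was called higher and 1, CYP24A1, lower. With voom on genes of at least 10 reads on average its log2 difference was 1.01 (SE 0.234, limma adjusted p = 0.00549). None of its 50-base stretches occurs in another CYP gene.

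Among the 13 untested P450 genes with 1 library at 0.1 FPKM or more, the groups did not overlap for CYP2J2 (higher) and CYP3A5 (lower). Over all 13222 genes of that class 6.52% did not overlap, 3.59% in the higher direction and 2.93% in the lower. CYP4B1, CYP4A22, CYP4F8 and CYP4F22 had 0 reads in all 8 libraries, and CYP4X1 and CYP4Z1 had 1 read each.

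**Figure D3:**
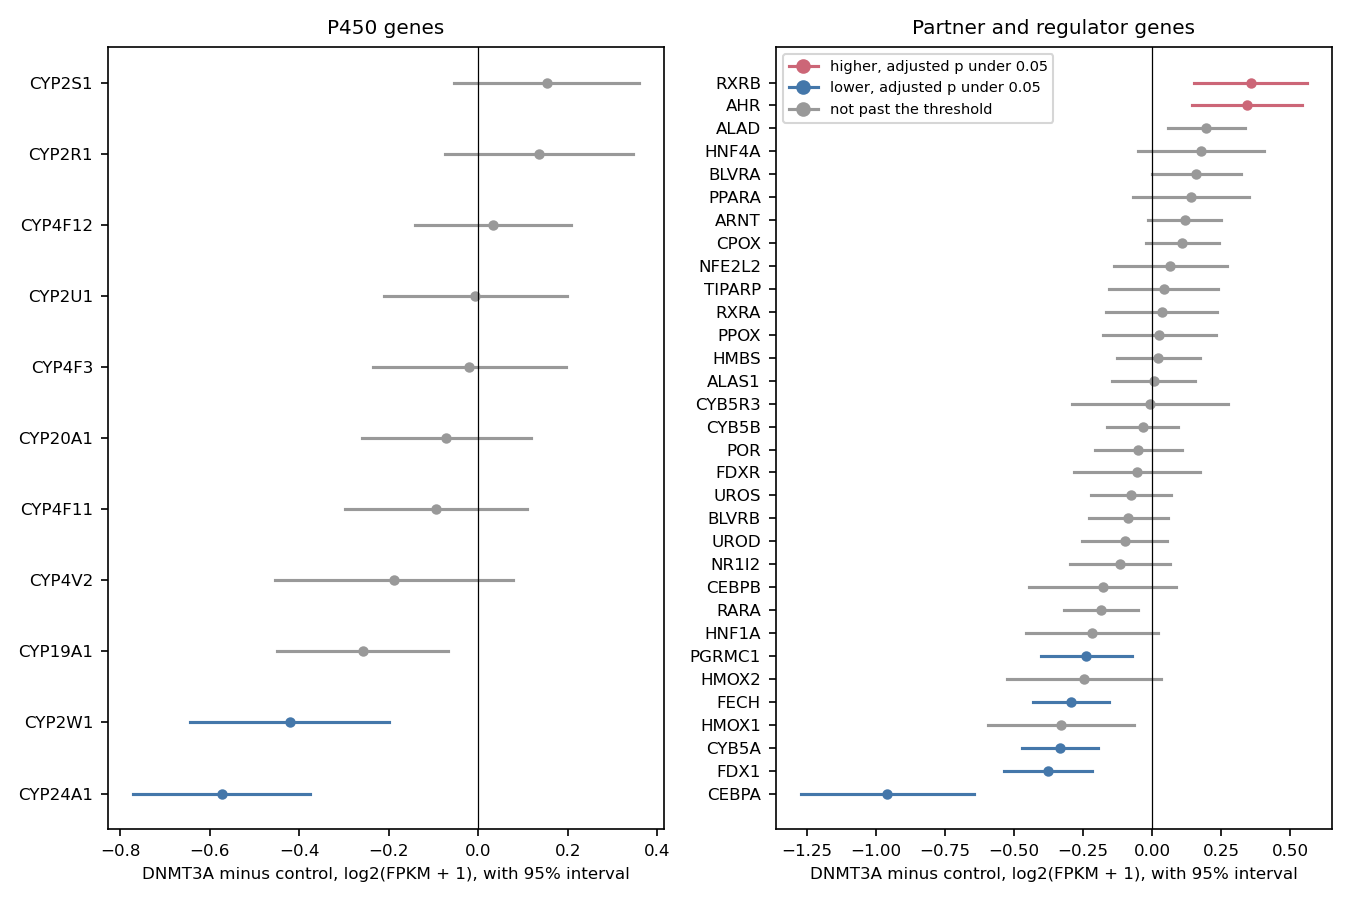
Differences between DNMT3A and control libraries on the log2(FPKM + 1) scale with 95% intervals, for the 11 tested P450 genes (left) and the 32 tested partner and regulator genes (right). Blue marks genes called lower and red genes called higher at an adjusted p under 0.05. CYP24A1 and CYP2W1 are the called P450 genes, and CEBPA has the largest difference on the right.

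The P450s of vitamin D and retinoids make and break the hormone forms of vitamins D and A. Of 7 such genes 2 were tested: CYP24A1 fell and CYP2R1 did not pass the test. CYP24A1, which inactivates vitamin D hormone and is a known target of the vitamin D receptor (ENSG00000019186, hg38 chromosome 20, 54153449 to 54173973, minus strand), had the largest difference among the tested P450 genes. It was at 7.98, 10.2, 8.89 and 7.55 FPKM in control libraries 1 to 4 and at 5.12, 6.05, 5.27 and 5.43 FPKM in DNMT3A libraries 1 to 4. The lowest control was above the highest DNMT3A library. The mean went from 8.66 ± 1.18 to 5.47 ± 0.408 FPKM, a difference of -0.57 (SE 0.0887, limma adjusted p = 0.00266 and, by the two-sided exact permutation test, p = 0.0286). Its call held under every alternative run, with limma adjusted p from 0.000429 to 0.0149.

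CYP2R1, which starts the activation of vitamin D in liver, was at 1.10, 1.16, 0.895 and 1.02 FPKM in control libraries 1 to 4 and at 1.34, 0.955, 1.30 and 1.40 FPKM in DNMT3A libraries 1 to 4. DNMT3A library 2 lay within the control range and the other DNMT3A libraries above it. The difference was 0.14 (95% interval -0.07 to 0.35, limma adjusted p = 0.331). CYP27B1, which makes the active hormone, was at 0.471 ± 0.160 FPKM in control and 0.494 ± 0.0899 FPKM in DNMT3A libraries (SD, n = 4). Its annotated gene shares 516 bases with METTL1 (4.05 FPKM) on the same strand, so its low level is uncertain.

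The vitamin D receptor gene VDR was under the filter, at 0.152 ± 0.0391 FPKM in control and 0.206 ± 0.0646 FPKM in DNMT3A libraries (SD, n = 4). Of the retinoic acid hydroxylases, CYP26B1 had 27 reads in the controls and 17 in the DNMT3A libraries, CYP26A1 had 2 and 1, and CYP26C1 had 0. CYP27C1 also had 0 reads.

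Of the 6 steroidogenic P450 genes, which make sex and adrenal hormones, only CYP19A1 was tested, and it did not pass the threshold. CYP19A1, the aromatase that turns androgens into oestrogens (ENSG00000137869, hg38 chromosome 15, 51208057 to 51338610, minus strand), was at 3.27, 2.89, 3.28 and 3.43 FPKM in control libraries 1 to 4. In DNMT3A libraries 1 to 4 it was at 2.70, 2.01, 2.72 and 2.71 FPKM. Every DNMT3A library was below every control library, and DNMT3A library 2 was apart from the others.

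The CYP19A1 difference was -0.26 (SE 0.0857, limma adjusted p = 0.0599 and, by the two-sided exact permutation test, p = 0.0286). It was -0.18 without DNMT3A library 2, where the limma adjusted p was 0.0828. The gene passed the threshold with array weights (limma adjusted p = 0.0362), quantile normalization (0.0411) and voom on the same genes (0.0298). A long non-coding gene on the other strand, MIR4713HG, overlaps 85856 bases of CYP19A1 and was at 0.557 FPKM over all libraries.

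CYP11A1, which cuts the cholesterol side chain, was at 0.365 ± 0.0958 FPKM in control and 0.336 ± 0.0946 FPKM in DNMT3A libraries (SD, n = 4). CYP21A2, an adrenal steroid hydroxylase, was at 0.281 ± 0.119 and 0.444 ± 0.125 FPKM (SD, n = 4), with overlapping groups (two-sided exact permutation p = 0.114). Of its 50-base stretches 33.2% occur in the pseudogene CYP21A1P, so its value is uncertain. CYP17A1 had 1 read in the controls and 2 in the DNMT3A libraries, CYP11B1 had 3 and 0, and CYP11B2 had 0 in both.

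CYP20A1, a P450 with no settled substrate, was close to CYP24A1 in the controls and differed by -0.07 between groups (95% interval -0.26 to 0.12, limma adjusted p = 0.585). It was at 7.81, 9.57, 9.68 and 8.87 FPKM in control libraries 1 to 4 and at 8.45, 7.93, 7.87 and 9.77 FPKM in DNMT3A libraries 1 to 4. The ranges of CYP20A1 and CYP24A1 overlapped in the controls and did not overlap in the DNMT3A libraries, where CYP20A1 was the higher. CYP39A1 and CYP46A1, which hydroxylate oxysterols and cholesterol, had 6 reads and 1 read over all 8 libraries.

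In the controls the tested genes ran from CYP2W1 through CYP20A1, CYP24A1, CYP4F3, CYP4F11, CYP4F12, CYP19A1, CYP4V2, CYP2S1 and CYP2U1 to CYP2R1. CYP2W1 was above the next gene in every library. Neighbouring ranges also did not overlap between CYP24A1 and CYP4F3, CYP19A1 and CYP4V2, and CYP2S1 and CYP2U1, and the other neighbours in this order overlapped. The filter at 1 FPKM fell between CYP2U1, with a mean of 1.08 FPKM over the 8 libraries, and CYP3A5, with 0.946 FPKM.

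RefSeq start windows (250 bases before to 50 after each start, GRCh38.p14) were found for 37 of the 49 genes, with 50 windows in all since some genes have several starts. Among the tested genes, CYP24A1 and CYP4F12 were not matched. The windows held a median of 4.5 CpG pairs (quartiles 2 and 16.8), beside 14 (quartiles 4 and 28) over 35116 windows of all genes. The windows of the 9 tested genes found held 0 to 36 CpG pairs. CYP4V2, CYP2U1, CYP20A1 and CYP2S1 had 29 or more, and CYP19A1, CYP4F3 and CYP4F11 had 6 or fewer in every window. Those at 0 in all libraries also ran from few to many, with 1 in CYP2A13 and 29 in CYP26C1.

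The TATA box letters TATAAA, searched on both strands, were in 18 of the 50 P450 windows, or 36.0%, beside 11.5% of all windows. Of these 18 windows 2 belonged to tested genes, and both were windows of CYP19A1, which has 7 of the 50 windows. The core of the dioxin response element, GCGTG on either strand, was in 24.0% of the P450 windows and in 36.5% of all windows. Of these 12 P450 windows 4 belonged to tested genes (CYP2W1, CYP20A1, CYP2U1 and CYP4V2). Another 4 belonged to untested genes with reads (CYP1A1, CYP2J2, CYP11A1 and CYP4X1). The last 4 belonged to genes with 0 reads (CYP2A7, CYP26C1, CYP27C1 and CYP4F22). The CYP2S1 window had none. GCGTG contains a CpG pair, so its share moves with CpG content. A match is a description of the letters and not of binding.

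**Figure D4:**
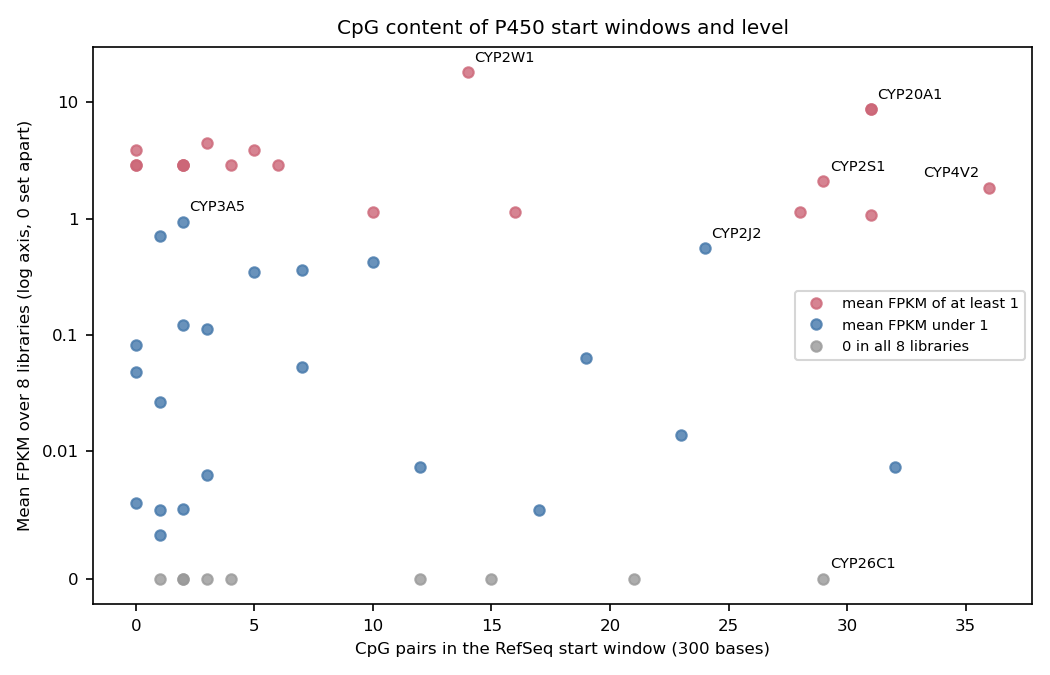
CpG pairs in each RefSeq start window of 37 P450 genes against the gene's mean FPKM over 8 libraries (log axis, with genes at 0 set apart at the bottom); each point is a window, and a gene with several starts has several points. Windows with few and with many CpG pairs occur among tested genes, untested genes with reads and genes at 0.

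The groups of genes that P450 enzymes depend on were taken from the same fit: electron donors, enzymes of haem supply and breakdown, and the sensors and regulators of P450 transcription. Of 38 such genes 32 were tested, 2 rose, 5 fell and for 25 no change passed. These are 6.25% and 15.6% of those tested, beside 9.93% and 10.6% of all tested genes.

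Of 7 tested electron donors 3 fell (CYB5A, FDX1 and PGRMC1) and 0 rose, with a median difference of -0.05. The 3 are 42.9% of this small list, beside 10.6% of all tested genes called lower and 9.93% called higher. CYB5A, the microsomal cytochrome b that supports several P450 reactions, was at 11.7, 12.2, 11.8 and 10.9 FPKM in control libraries 1 to 4 and at 9.32, 8.98, 9.64 and 8.22 FPKM in DNMT3A libraries 1 to 4. The groups did not overlap, and it fell by 0.33 on the log2(FPKM + 1) scale (SE 0.0613, limma adjusted p = 0.00584). FDX1, the ferredoxin that serves mitochondrial P450s such as CYP24A1 and CYP11A1, was at 12.6, 14.1, 13.1 and 12.5 FPKM in control libraries 1 to 4 and at 10.1, 9.15, 9.13 and 11.1 FPKM in DNMT3A libraries 1 to 4. Every DNMT3A library was below the lowest control, and it fell by 0.38 (SE 0.0712, limma adjusted p = 0.00652).

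PGRMC1, a haem-binding membrane protein that partners P450s, fell from 83.7 ± 2.20 to 71.1 ± 7.01 FPKM (SD, n = 4; difference -0.24, limma adjusted p = 0.0468). Its call was near the threshold: it was lost without a filter, with either rescaling of the libraries, without the intensity trend, with the replicate number as a block, and on leaving out any 1 control library, or DNMT3A library 1 or 3 (0.0548 to 0.165 for the adjusted p of limma). POR, the reductase of all microsomal P450s, was at 45.8 ± 2.95 FPKM in control and 44.3 ± 3.30 FPKM in DNMT3A libraries (SD, n = 4), a difference of -0.05 with a 95% interval of -0.21 to 0.11.

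Of 12 haem genes 1 fell (8.33%) and 0 rose, beside 10.6% of all tested genes called lower and 9.93% called higher. ALAD, an early enzyme of haem synthesis named after its values were seen, was higher in every DNMT3A library (9.32 FPKM or more) than in any control library (9.01 FPKM or less) but did not pass the threshold (difference 0.20, limma adjusted p = 0.0502). With voom on genes of at least 10 reads on average ALAD was called higher (limma adjusted p = 0.0333). That fit called HMOX1, also named after its values were seen, lower (limma adjusted p = 0.0498). In the main fit HMOX1 had overlapping groups and did not pass the threshold (difference -0.33, limma adjusted p = 0.0780). FECH, the ferrochelatase that puts iron into haem, was at 8.97, 9.21, 8.33 and 8.90 FPKM in control libraries 1 to 4 and at 7.57, 6.40, 6.89 and 7.31 FPKM in DNMT3A libraries 1 to 4. The groups did not overlap, and it fell by 0.29 (SE 0.0615, limma adjusted p = 0.00985). ALAS1, the rate-limiting enzyme of haem synthesis in liver, differed by 0.01 (95% interval -0.14 to 0.16).

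Of 13 tested sensors and regulators 2 rose (AHR and RXRB) and 1 fell (CEBPA). These are 15.4% and 7.69% of the 13, beside 9.93% and 10.6% of all tested genes. AHR, the dioxin receptor, was at 2.13, 2.26, 2.49 and 1.95 FPKM in control libraries 1 to 4 and at 3.02, 2.57, 3.12 and 3.60 FPKM in DNMT3A libraries 1 to 4. The groups did not overlap, and it rose by 0.34 (SE 0.0895, limma adjusted p = 0.0248), while its known target CYP1A1 had the overlapping values given above. Its partner ARNT differed by 0.12 (95% interval -0.01 to 0.25, limma adjusted p = 0.187).

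RXRB, a retinoid X receptor that pairs with other nuclear receptors, rose by 0.36 (SE 0.0909, limma adjusted p = 0.0226), from 6.77 ± 0.707 to 8.96 ± 1.04 FPKM (SD, n = 4). Its abundant relative RXRA differed by 0.03 (95% interval -0.17 to 0.24). The calls of AHR and RXRB were both lost without a filter (limma adjusted p = 0.0785 and 0.0752) and with the replicate number as a block (0.0550 and 0.0506). Leaving out 1 library ended the call of AHR where it was control 1, 2 or 4, or DNMT3A 1 or 3 (0.0530 to 0.0632), and that of RXRB where it was control 2 or 3, or DNMT3A 1 or 3 (0.0570 to 0.0646).

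CEBPA, a liver transcription factor, differed by -0.96 (limma adjusted p = 0.00199), the largest difference among the 32 genes. RARA, another of these regulators, was lower in every DNMT3A library (3.99 FPKM or less) than in any control library (4.19 FPKM or more). It did not pass the threshold (difference -0.19, limma adjusted p = 0.0536), nor with voom on genes of at least 10 reads (limma adjusted p = 0.118). NR1I2, the drug sensor PXR, was at 2.07 ± 0.0940 FPKM in control and 1.84 ± 0.256 FPKM in DNMT3A libraries (SD, n = 4; difference -0.12, limma adjusted p = 0.339). NR1I3, the drug sensor CAR, was under the filter at 0.316 ± 0.0537 and 0.437 ± 0.131 FPKM (SD, n = 4), with overlapping groups.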

How the data were processed

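Per the file headers, the authors deposited gene FPKM, 1 column per library; per the submitters' processing notes, reads were aligned with HISAT2 2.0.5 to hg38. The counting program is not given in the sources used here. Groups and replicate numbers came from sample titles. Multiplied by gene length and divided by each library's smallest unit, 100% of nonzero FPKM values came out as whole reads (tolerance 0.01 of a read). Genes with a mean of at least 1 FPKM were compared as log2(FPKM + 1) with limma 3.58.1 in R 4.3.3 (intensity trend, threshold 0.05). The fit was also run on simulated data with normal noise drawn from its own variances. Such data cannot show how the fit performs on the real values. Single genes were compared by an exact permutation test over 70 assignments.

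Every P450 gene at 0.1 FPKM or more in some library could be named, as could every called partner or regulator gene and 7 of those whatever their value. VDR, ALAD, HMOX1, RARA and genes under 0.1 FPKM in all libraries were named after their values were seen. The members, lists and rules were chosen with earlier results of these data known. A planned count test by edgeR was not run because the values were deposited as FPKM, and voom on the recovered reads was run instead. The labels do not say whether libraries came from separate cultures, and the spread behind each p-value may therefore be technical.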

Additional observations from a re-analysis of the deposited data

Results flagged for a closer look

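Of 74 groups of 4 libraries examined for the genes that the rules allowed to be named, 3 held a library far from the others. Chance flags about 1 in 20 such groups. CYP19A1 was at 2.01 FPKM in DNMT3A library 2, where the nearest DNMT3A library was at 2.70 FPKM. CYP11A1 was at 0.195 FPKM in DNMT3A library 4, with the nearest at 0.363 FPKM. POR was at 39.3 FPKM in DNMT3A library 4, with the nearest at 45.4 FPKM.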

How the results depend on the processing

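The count of P450 genes called was 2 as reported and 2 without each library in turn (0 higher, 2 lower each time). With array weights 4 were called, all 4 lower. Without a filter 1 was called higher and 1 lower of 39 with reads. With voom on genes of at least 10 reads, chosen after the data were seen, 5 were called, 1 higher and 4 lower. For partner and regulator genes the reported count was 7 (2 higher, 5 lower). It was 4 (0 higher) without a filter, 4 (0 higher) with the replicate number as a block, and 12 (4 higher, 8 lower) with array weights. It ranged from 4 to 9 when 1 library was left out, with 0 to 3 higher and 4 to 7 lower. For array weights, the replicate block and the fits without 1 library, the share of all tested genes called was not worked out. These counts, of P450 and of partner and regulator genes, therefore have no background beside them. Deviations from the group mean correlated at 0.16, -0.08, -0.02 and 0.10 between same-numbered libraries, and at -0.32 to 0.20 between differently numbered ones. These values cannot show whether same-numbered libraries share a culture or batch, which the labels do not give. With the replicate number as a block 2 P450 genes were called. Among tested P450 genes, leaving out 1 library turned the sign of the near-0 differences of CYP4F3, CYP4F12 and CYP2U1. It did so for POR, ALAS1 and RXRA as well. No called gene changed sign under any alternative run. The planned edgeR test was not run. Low read counts limit what can be seen among the P450 genes under 1 FPKM.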
